A study of Mus musculus with 8 samples.

Results

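The genes described here are the chemokines and their receptors. They are the 51 gene symbols, of 13681 in the deposited expression table, that begin with Ccl, Cxcl, Cx3cl or Xcl (33 ligands) or with Ccr, Cxcr, Cx3cr or Xcr (18 receptors) followed by a digit. Together they have 59 transcript entries. For the 5 members with more than 1 entry (Ccl20, Ccl27a, Ccr6, Ccr9 and Cxcl12), the entry with the highest mean was used. Expression was sequenced in 8 thymic lymphomas of C57BL/6 mice, every one p53-/-. Each tumour was injected with an adenovirus when the mouse was 10 weeks old, and its RNA was taken 48 hours later. The 2 controls carry the genotype label ΔNfl/fl;p53-/- and received Ad-mCherry, a virus for a red fluorescent protein. The 3 libraries labelled ΔNp63Δ/Δ;p53-/- and the 3 labelled ΔNp73Δ/Δ;p53-/- received Ad-CRE-mCherry, which also carries the Cre recombinase that cuts floxed alleles. ΔNp63 and ΔNp73 are short forms of p63 and p73, proteins of the p53 family, made without the amino-terminal activation domain.

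No group received Cre without a deletion label, so Cre itself and a deletion cannot be told apart in either comparison with control. The control label does not say which gene is floxed, and the promoter that drives Cre is not given in the sources used here. Nothing in the labels shows that the libraries of a group came from separate mice. The p-values therefore measure only the spread between these samples, which may be technical. Both deletion groups are compared with the same 2 controls, and their values below stand side by side without a test of their likeness. Replicate numbers follow label order.

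Chemokines are small secreted proteins that bind receptors coupled to G proteins on leukocytes and draw those cells along a gradient. Inflammatory chemokines such as Ccl2, Ccl5 and Cxcl1 are made on stimulation and call monocytes, effector lymphocytes and neutrophils, whereas homeostatic ones such as Ccl25, Cxcl12 and Ccl21 are made constantly by stroma and epithelium. In the thymus the homeostatic chemokines guide progenitors in and move maturing thymocytes from cortex to medulla, through the receptors Ccr9, Cxcr4 and Ccr7.

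Levels are FPKM (sequenced fragments scaled by transcript length and library size), quantile-normalised by the authors, and can be compared between genes because they are per length. The table gives no counts, and the depth behind these levels is unknown. All 18 T cell and thymocyte markers checked were in the table. Their summed level was 6894.1 to 7618.1 FPKM in the controls, 3210.2 to 5588.8 in the ΔNp63-labelled and 3140.0 to 4977.5 in the ΔNp73-labelled tumours. In ΔNp63-labelled replicate 2, 15 of the 18 were below both controls and 2 above them. Trp63 did not set the ΔNp63-labelled libraries apart from the controls, since all 4 of its entries overlapped between them. Between the deletion groups an entry ran from 0.777 to 5.91 FPKM in the ΔNp63-labelled and 9.03 to 11.5 in the ΔNp73-labelled libraries. Another ran from 0.0394 to 3.98 and from 4.49 to 6.81, and the remaining entries overlapped. The entry with the highest mean lay between 3.38 and 5.21 FPKM in the controls, 1.05 and 9.91 in the ΔNp63-labelled and 6.38 and 13.8 in the ΔNp73-labelled libraries, and Trp73 was not analysed here, so the ΔNp73 label has no such check. The deletion groups are therefore named by their labels throughout.

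A single library stood apart from the others of its group. ΔNp63-labelled replicate 2 was the lowest of the 8 libraries for 24 of the 49 members tested and within the range of the others for the other 25. Its markers of thymic epithelium summed to 65.6 FPKM, against 423.6 to 646.4 elsewhere, its B cell markers to 5.75, and its markers of cytotoxic lymphocytes to 1002.6 against 70.7 to 173.3. The granzyme Gzma alone made 980.9 FPKM of that last sum. The fitted values and the counts of calls that the results turn on are given with and without this library, and levels and sums are over all libraries unless stated. What set it apart was not tested.

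By mean level over the 8 libraries, the most abundant ligands were Ccl21a at 284.6 FPKM, Ccl5 at 247.1, Ccl25 at 234.8, Ccl8 at 142.6 and Cxcl12 at 138.7. The standard deviations over libraries, 59.7 for Cxcl12 to 217 for Ccl21a, were wider than most of the steps between neighbours in this order. Among the receptors Cxcr4 stood at 162.2 FPKM and Ccr9 at 77.1, followed by Ccr7 at 26.4 and Ccr2 at 22.7. Cxcr4 was above Ccr9 in each of the 8 libraries, whereas Ccr7 and Ccr2 changed places between the groups. These order values rest on libraries of different groups and describe the table as a whole.

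Without ΔNp63-labelled replicate 2, all 4 ligands of Ccr2 and the myeloid receptors Ccr1 and Ccr2 were called higher in both Cre-treated groups than in the controls by limma, as 11.7% and 16.8% of all genes tested were, and with it none was. The receptors of thymocytes and T cells went both ways: in all 6 deletion libraries Ccr9, by the entry used, was below both controls and Cxcr3 above them. A second Ccr9 entry overlapped the controls, and Cxcr3 was chosen after its values were seen. Of these 9 receptors, 1 was above and 1 below both controls in the ΔNp63-labelled group, beside 12.6% and 17.7% of all genes. In the ΔNp73-labelled group 2 were above and 4 below, beside 27.7% and 35.7%. Counts this near the shares of all genes say nothing particular about these receptors. Log2 fold changes (log2FC) are differences of group means of log2(FPKM + 1) and understate the change of low genes. Over the 32 ligands tested the median log2FC against control was 0.91 in the ΔNp63-labelled (1.50 without replicate 2) and 1.25 in the ΔNp73-labelled group. Over the 17 receptors tested it was 0.11 (0.65 without replicate 2) and 0.52, and over all 12921 genes tested -0.02 and -0.07. Members with little RNA were left out of the tests, namely Ccl1 (0.325 to 1.36 FPKM) and Ccr3 (0.393 to 1.1 FPKM).

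Per library, the median difference of the 32 ligands from the control mean was 1.72, 0.05 and 1.34 on the log2 scale in ΔNp63-labelled replicates 1, 2 and 3, and 1.32, 1.17 and 1.12 in the 3 ΔNp73-labelled libraries. That of the 17 receptors was 0.70, -0.60 and 0.67, and then 0.40, 0.49 and 0.25. ΔNp63-labelled replicate 2 was thus the only deletion library whose ligands lay at the control level and whose receptors lay below it, by these medians. In all 6 deletion libraries the median of the ligands was above that of the receptors.

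With all libraries in 1 limma model no member passed an adjusted p of 0.05 in any of the 3 comparisons. Few genes did: 0.031% of all genes tested were called higher and 0.0619% lower in the ΔNp63-labelled group, 0.0464% and 0.00774% in the ΔNp73-labelled group, and 0.031% and 0.0232% between the deletion groups. The smallest adjusted p of a member was that of Ccl6, with 0.131 for ΔNp63-labelled and 0.0597 for ΔNp73-labelled libraries against control. At an unadjusted p under 0.05, 16 of 49 members were higher and 0 lower in the ΔNp63-labelled group by limma, where 5.96% of all genes were higher and 7.03% lower. In the ΔNp73-labelled group 21 members were higher and 3 lower, beside 11.4% and 9.83% of all genes.

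Without ΔNp63-labelled replicate 2, limma called 28 of the 49 members higher and 0 lower in the ΔNp63-labelled group, 20 of them ligands and 8 receptors, where 11.7% of all genes tested were called higher and 10.8% lower. In the ΔNp73-labelled group it then called 29 higher and 3 lower (Ccl17, Ccl25 and Ccr9), where the shares of all genes were 16.8% and 16.1%. Of these, 21 higher and 2 lower were ligands, and 8 higher and 1 lower were receptors. The ΔNp73-labelled values are the same in both models, and it is the estimate of spread, shared across the groups, that the left-out library widens. A model of the 2 controls and the 3 ΔNp73-labelled libraries alone called 30 members higher and 4 lower, where 15.9% and 14.9% of all genes were called.

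The ranges of the groups need no model. All 3 ΔNp63-labelled libraries were above both controls for 14 of 32 ligands and 4 of 17 receptors (18 of 49 members, against 12.6% of all genes), and below both for 1 member, Ccr9 (against 17.7%). Without replicate 2 they were above for 24 ligands and 12 receptors (36 of 49, against 31.9% of all genes) and below for 2 members (against 37.1%). All 3 ΔNp73-labelled libraries were above both controls for 24 ligands and 9 receptors (33 of 49, against 27.7% of all genes), and below both for 3 ligands and 4 receptors (7 of 49, against 35.7%). The plot of the log2 fold changes of the members tested shows that the spread among ligands is wide, from Ccl2 down to Ccl25 in the ΔNp63-labelled and to Ccl17 in the ΔNp73-labelled group, and that the receptors separate into a small high group and a larger group about 0.

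**Figure D1:**
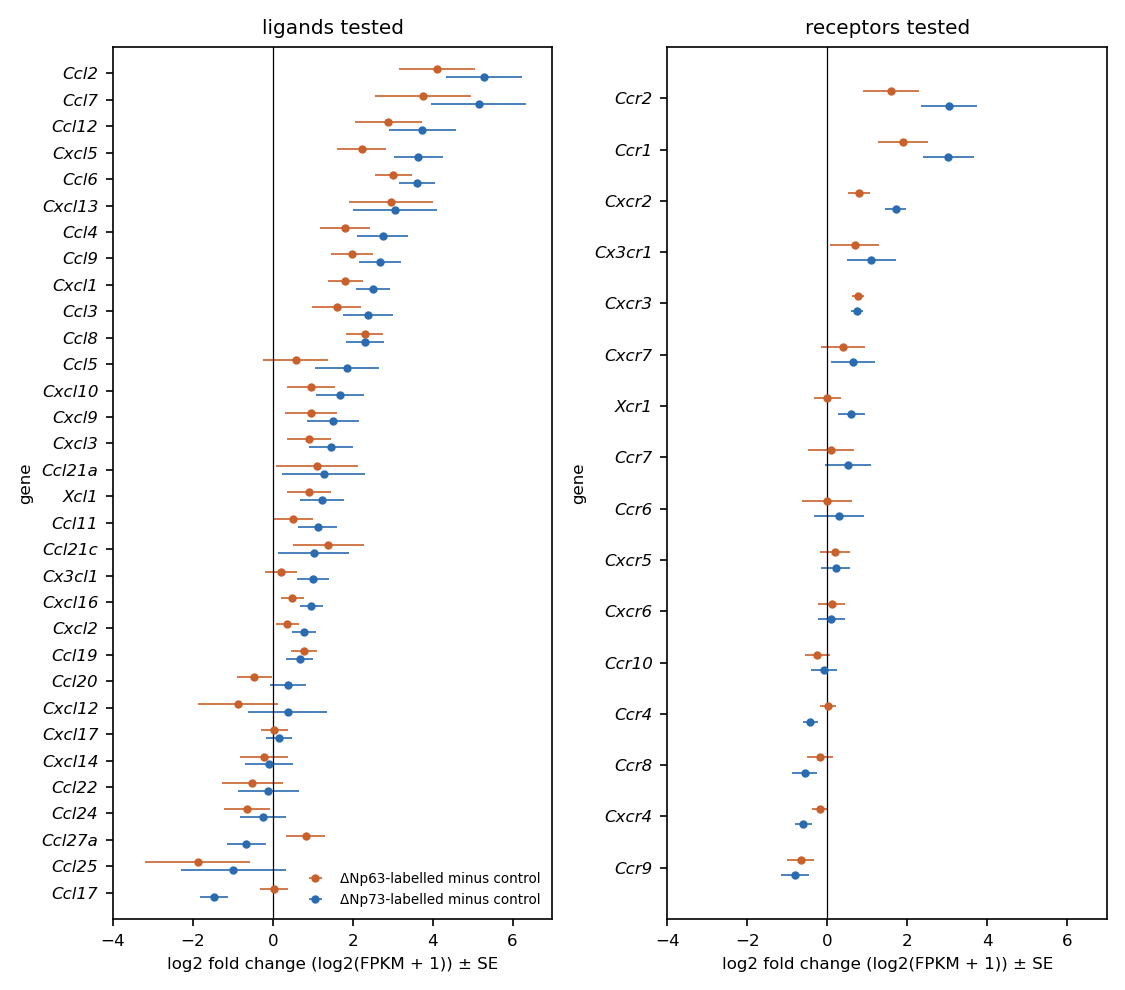
Log2 fold change against control (x axis, difference of mean log2(FPKM + 1), with the standard error of the limma fit on all 8 libraries as bars) for the 32 ligands (left) and the receptors (right) tested, with 1 receptor not drawn, in the ΔNp63-labelled (orange) and ΔNp73-labelled (blue) groups. Ccl2 and Ccl7 lie farthest to the right among the ligands, and Ccr2 and Ccr1 among the receptors drawn, while Ccr9 and Cxcr4 lie left of 0 in both groups.

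The ligands of Ccr2, the receptor that brings monocytes out of the marrow and into tissue, had the largest median log2FC of any role, 3.32 in the ΔNp63-labelled and 4.44 in the ΔNp73-labelled group. Ccl2, the main monocyte attractant, was at 1.76 and 2.83 FPKM in control tumours, at 123.4, 11.7 and 112.9 in the ΔNp63-labelled tumours and at 178.3, 151.7 and 74.6 in the ΔNp73-labelled tumours. All 6 deletion libraries were above both controls, and ΔNp63-labelled replicate 2 was the lowest of the 6. The log2FC of Ccl2 was 4.12 ± 0.95 (SE, limma adjusted p = 0.206) in the ΔNp63-labelled and 5.29 ± 0.95 (adjusted p = 0.0787) in the ΔNp73-labelled group. Without replicate 2 it was 5.19 ± 0.39 (adjusted p = 0.00134) and 5.29 ± 0.35 (adjusted p = 0.000642).

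Ccl7, a close relative that also acts on Ccr2, was at 1.12 and 1.82 FPKM in control tumours, at 82, 4.08 and 84.9 in the ΔNp63-labelled and at 145.2, 98.6 and 43.8 in the ΔNp73-labelled tumours. Ccl12, a second mouse monocyte attractant, was at 8.94 and 8.27 FPKM in control tumours, at 135.1, 20.3 and 122.4 and then at 165.4, 195.4 and 63.1. Both genes kept the pattern of Ccl2, with no overlap between controls and deletion libraries and with replicate 2 lowest among the latter. Ccl8 began from a higher control level, 30.5 and 35.8 FPKM, and stood at 229.9, 81.8 and 247.0 in the ΔNp63-labelled and at 199.9, 190.9 and 125.0 in the ΔNp73-labelled tumours. As group means, Ccl7 was 38.9 times (56.9 without replicate 2) and 65.4 times its control level, Ccl12 10.8 (15 without it) and 16.4 times, and Ccl8 5.62 (7.19 without it) and 5.18 times. Without replicate 2 all 4 Ccr2 ligands were called higher in both groups, beside 11.7% and 16.8% of all genes, with median log2FC of 4.43 and 4.44.

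Ccl2, Ccl7, Ccl11, Ccl12, Ccl8 and Ccl1 are neighbours on chromosome 11 in the RefSeq gene order. The promoters of 2 of these neighbours are shown because both genes were higher in all 6 deletion libraries. They are the 250 bases before the transcription start from RefSeq (GRCm38.p6), at chr11:82101595-82101844 for Ccl12 and chr11:82114935-82115184 for Ccl8, both on the plus strand, with matches to TATAAA in capitals.
Ccl12: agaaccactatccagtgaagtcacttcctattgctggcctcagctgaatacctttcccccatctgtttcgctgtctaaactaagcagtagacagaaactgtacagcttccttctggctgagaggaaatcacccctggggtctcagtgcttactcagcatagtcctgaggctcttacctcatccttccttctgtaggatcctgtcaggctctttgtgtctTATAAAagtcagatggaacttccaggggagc
Ccl8: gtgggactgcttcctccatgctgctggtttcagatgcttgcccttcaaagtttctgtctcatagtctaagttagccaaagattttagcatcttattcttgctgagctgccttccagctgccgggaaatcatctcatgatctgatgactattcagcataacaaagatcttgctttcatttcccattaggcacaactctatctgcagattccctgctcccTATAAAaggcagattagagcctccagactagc
The match begins at position -31 in Ccl12 and at -32 in Ccl8, counted from the start site. Of the 51 members 37 had an entry in the promoter table. TATAAA, searched on both strands, was found in 11 of the 37 and in 14.3% of all genes. The neighbour Ccl11 (eotaxin), a ligand of the eosinophil receptor Ccr3, was at 40.8 and 36 FPKM in control tumours, at 78, 24.6 and 85.3 and at 97.8, 87.1 and 71.9 in the deletion groups, and overlapped the controls through replicate 2.

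A second set of inflammatory ligands lies together elsewhere on chromosome 11, in the order Ccl5, Ccl9, Ccl6, Ccl3 and Ccl4. Ccl5, known as RANTES and made by activated T cells and macrophages, was at 98.4 and 104.5 FPKM in control tumours, at 318.4, 41.5 and 257.2 in the ΔNp63-labelled and at 419.4, 486.6 and 250.6 in the ΔNp73-labelled tumours. Replicate 2 was the only deletion library below the controls, and the other 5 were above them. The log2FC was 0.57 ± 0.81 (limma adjusted p = 0.808) in the ΔNp63-labelled group and 1.86 ± 0.81 (adjusted p = 0.24) in the ΔNp73-labelled group. Without replicate 2 it was 1.49 ± 0.30 (adjusted p = 0.0147) and 1.86 ± 0.27 (adjusted p = 0.00341), so that this library decides the ΔNp63-labelled value.

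Ccl6, a myeloid chemokine of rodents, was well above the controls in that library too. It was at 7.45 and 6.71 FPKM in control tumours, at 121.3, 43.5 and 51 in the ΔNp63-labelled and at 144.0, 72.1 and 89.8 in the ΔNp73-labelled tumours. Every deletion library was at 43.5 FPKM or above, and the 3 ΔNp63-labelled libraries overlapped the 3 ΔNp73-labelled ones. The log2FC was 3.02 ± 0.46 and 3.61 ± 0.46 with all libraries, and the limma adjusted p of 0.131 and 0.0597 became 0.00363 and 0.00146 without replicate 2.

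Ccl9 was at 2.58 and 2.33 FPKM in control tumours and at 6.73 to 33.3 in the deletion libraries. Ccl3 and Ccl4, the macrophage inflammatory proteins, were lower in abundance. Ccl3 was at 3.02 and 2.32 FPKM in control tumours, at 17.9, 4.06 and 13.4 and at 15.2, 34.2 and 11.1. Ccl4 was at 0.276 and 1.34, then at 7.05, 2.23 and 7.61 and at 11.5, 20.2 and 4.94. For Ccl3, Ccl4, Ccl6 and Ccl9 no deletion library reached down to the controls. All 5 genes of this role were called higher in both groups without replicate 2, with median log2FC of 2.27 and 2.69, and 0 of 5 with it. Of all genes, 11.7% and 16.8% were called higher without it.

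**Figure D2:**
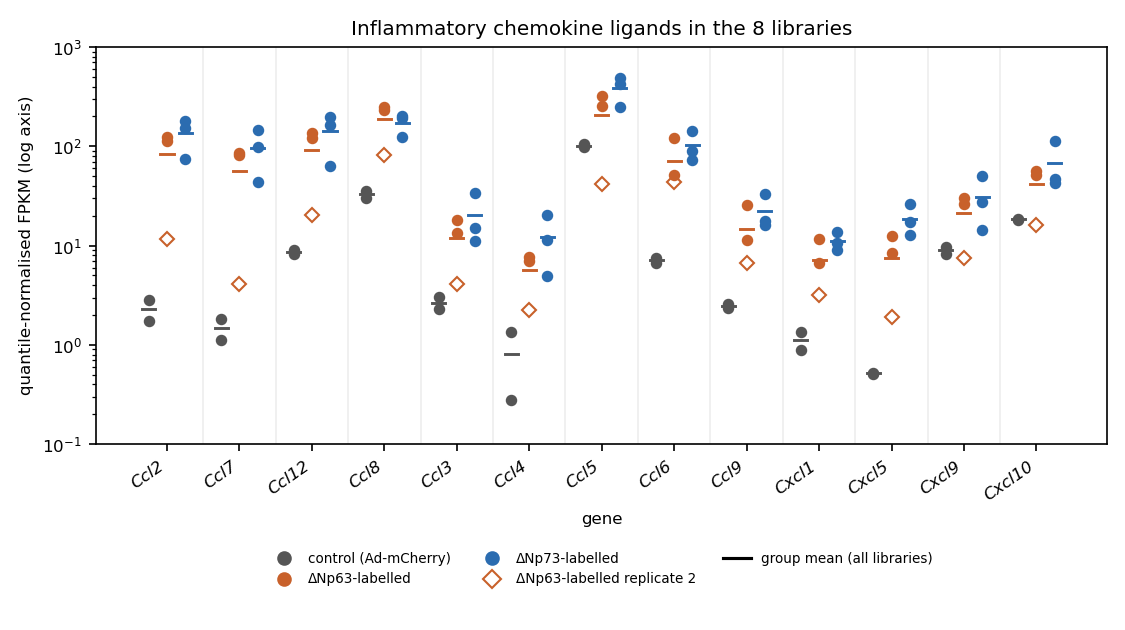
Quantile-normalised FPKM (log axis) of 13 inflammatory ligands in each of the 8 libraries, with controls in grey, ΔNp63-labelled in orange and ΔNp73-labelled in blue; bars are group means over all libraries and the open diamond is ΔNp63-labelled replicate 2. For Ccl2 the controls lie at 1.76 and 2.83 and the 5 filled deletion points between 74.6 and 178.3, with the diamond at 11.7.

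The ligands of Cxcr2, which calls neutrophils, form a block on chromosome 5 in the order Cxcl5, Cxcl3, Cxcl1 and Cxcl2. Cxcl5 was at 0.51 and 0.524 FPKM in control tumours, at 12.4, 1.9 and 8.36 in the ΔNp63-labelled and at 17.2, 12.8 and 26.1 in the ΔNp73-labelled tumours. It is 1 of 4 members, of 49 tested, whose ΔNp73-labelled libraries were all above all ΔNp63-labelled ones, as 10.3% of all genes were. Its log2FC was 2.23 ± 0.61 (limma adjusted p = 0.245) and 3.64 ± 0.61 (adjusted p = 0.0731), or 2.88 ± 0.31 (adjusted p = 0.00216) and 3.64 ± 0.28 (adjusted p = 0.000731) without replicate 2. Cxcl1, also called KC, was at 1.35 and 0.883 FPKM in control tumours, at 11.7, 3.21 and 6.65 and at 10.6, 8.96 and 13.8. It too was higher in every deletion library.

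Cxcl3 was at 1.44 and 1.75 FPKM in control tumours and at 2.33 to 11.9 in the deletion libraries, with no overlap. Cxcl2, named here for its place in the block although its group means all lay under the naming minimum of 5 FPKM, was at 1.92 and 0.844 in control tumours and at 1.7 to 4.18 in the deletion libraries, and overlapped. Without replicate 2, Cxcl1 and Cxcl5 were called higher in both groups by limma, and Cxcl2 and Cxcl3 in neither. The summed level of the neutrophil markers was highest in the same group as Cxcl5 and Cxcl1. Of 12 listed genes 11 had an entry. Their sums were 178.6 and 683.8 FPKM in the controls, 56.9 to 783.7 in the ΔNp63-labelled and 953.4 to 1593.7 in the ΔNp73-labelled tumours. S100a8 and S100a9 made most of each of these sums. S100a8 was at 96.8 and 457.9 FPKM in control tumours, at 471.7, 38.6 and 539.3 and at 671.2, 1101.2 and 726.7. S100a9 was at 40.2 and 123.8, at 192.0, 8.13 and 142.6, and at 212.4, 303.5 and 328.8. The granule gene Elane was listed at 0 in ΔNp63-labelled replicate 2. In that library 10 of the 11 neutrophil markers were below both controls, whereas Cxcl1, Cxcl3 and Cxcl5 were above them. Over the 11 the median log2FC was -0.18 (0.66 without replicate 2) in the ΔNp63-labelled and 1.22 in the ΔNp73-labelled group. Above 0 were 5 (9 without it) and 11. None was called with all libraries. Without replicate 2, 3 and 6 were called higher, beside 11.7% and 16.8% of all genes. The part of these cells in the result was not tested.

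Promoters of 3 genes of the block follow, since the neighbours share a run of letters while they differ in level. They span chr5:90890995-90891244 (Cxcl1), chr5:90903649-90903898 (Cxcl2) and chr5:90785851-90786100 (Cxcl3), all on the plus strand of GRCm38.p6 in RefSeq. Capitals mark an NF-kB-like motif (GGG and TTCC with 3 bases of any kind between) on either strand and, in Cxcl3, TATAAA.
Cxcl1: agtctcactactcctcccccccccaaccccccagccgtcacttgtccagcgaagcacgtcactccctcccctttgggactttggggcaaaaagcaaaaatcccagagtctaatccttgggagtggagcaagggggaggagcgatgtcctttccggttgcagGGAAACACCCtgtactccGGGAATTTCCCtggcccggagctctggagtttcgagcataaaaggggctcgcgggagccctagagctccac
Cxcl2: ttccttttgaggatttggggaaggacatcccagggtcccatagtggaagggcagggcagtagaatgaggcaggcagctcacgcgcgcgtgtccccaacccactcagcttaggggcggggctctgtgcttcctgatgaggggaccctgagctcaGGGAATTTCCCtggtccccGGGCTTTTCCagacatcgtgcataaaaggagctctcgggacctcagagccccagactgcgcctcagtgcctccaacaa
Cxcl3: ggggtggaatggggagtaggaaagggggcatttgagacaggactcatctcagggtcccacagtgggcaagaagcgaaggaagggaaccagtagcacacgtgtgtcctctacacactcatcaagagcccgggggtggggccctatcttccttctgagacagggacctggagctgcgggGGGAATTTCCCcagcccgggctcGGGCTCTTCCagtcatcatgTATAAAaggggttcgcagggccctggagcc
Each of the 3 promoters holds 3 matches to the NF-kB-like motif, of which a pair on opposite strands overlaps. The motif was present in 9 of the 37 members with a promoter entry, 7 of 23 ligands and 2 of 14 receptors, and in 5.31% of all genes. The ligands were Ccl1, Ccl20, Ccl9, Cxcl1, Cxcl10, Cxcl2 and Cxcl3, and the receptors Ccr3 and Ccr6. Cxcl1 and Cxcl2 both have this motif, and the difference between them was not tested: without replicate 2 the log2FC was 2.23 and 2.51 for Cxcl1 and 0.43 and 0.78 for Cxcl2. Promoters of Ccl12 and Ccl8, printed above, hold no match to it. A half-site of the p53 family, searched by its usual consensus on both strands, was found in 4 of the 37 (Ccl6, Cxcl13, Cxcl9 and Cx3cr1) and in 8.2% of all genes.

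The interferon-induced ligands of Cxcr3, which call effector T cells, lie together on chromosome 5. Cxcl10 was at 18.1 and 18.7 FPKM in control tumours, at 56.9, 16.3 and 51.3 in the ΔNp63-labelled and at 47.2, 113.8 and 42.5 in the ΔNp73-labelled tumours. Cxcl9 was at 8.31 and 9.71, at 26.5, 7.45 and 30.2, and at 50.5, 27.5 and 14.5. For both genes replicate 2 lay below the controls and the 5 other deletion libraries lay above them. With all libraries the log2FC was 0.95 ± 0.60 and 1.68 ± 0.60 for Cxcl10 (limma adjusted p = 0.537 and 0.18) and 0.95 ± 0.65 and 1.51 ± 0.65 for Cxcl9 (adjusted p = 0.571 and 0.242). Without replicate 2 the log2FC of Cxcl10 was 1.51 ± 0.42 (limma adjusted p = 0.0434) and 1.68 ± 0.38 (adjusted p = 0.0168), and that of Cxcl9 1.55 ± 0.48 (adjusted p = 0.0572) and 1.51 ± 0.43 (adjusted p = 0.0363).

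The promoter of Cxcl10 (chr5:92348890-92349139, minus strand, GRCm38.p6) is shown because it alone among the 37 holds both the NF-kB-like motif and an interferon-response-like one (GAAA and GAAA with 2 bases of any kind between); capitals mark both.
Cxcl10: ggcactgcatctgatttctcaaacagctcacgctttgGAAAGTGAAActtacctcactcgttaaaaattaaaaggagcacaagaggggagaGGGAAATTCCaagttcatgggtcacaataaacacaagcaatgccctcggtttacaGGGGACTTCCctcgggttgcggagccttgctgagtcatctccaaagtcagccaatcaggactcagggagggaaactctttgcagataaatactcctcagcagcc
The interferon-response-like motif was found on either strand in 3 of the 37 members (Ccl19, Cxcl10 and Cxcl14) and in 3.46% of all genes. In the same libraries all 14 interferon-induced genes of a fixed list had a log2FC above 0 in both groups, with medians of 1.18 (1.69 without replicate 2) and 1.82, and summed to 147.0 and 154.3 FPKM in the controls, 164.6 to 584.6 and 393.9 to 767.1. None of the 14 was called with all libraries. Without replicate 2, where 11.7% and 16.8% of all genes were called higher, 12 of the 14 were called higher in each group. Their part in the values of the Cxcr3 ligands was not tested.

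Homeostatic ligands showed other patterns. Ccl25, the thymic epithelial ligand of Ccr9, was at 372.9 and 348.6 FPKM in control tumours, at 218.0, 10.3 and 380.8 in the ΔNp63-labelled and at 147.3, 209.8 and 190.9 in the ΔNp73-labelled tumours. All 3 ΔNp73-labelled libraries were below both controls, while the ΔNp63-labelled libraries ran from 10.3 to above the controls. Replicate 2 was 14.3 times below the next lowest library. The log2FC in the ΔNp73-labelled group was -0.99 ± 1.31 (limma adjusted p = 0.681) with all libraries and -0.99 ± 0.25 (adjusted p = 0.0235) without replicate 2. In the ΔNp63-labelled group it went from -1.88 ± 1.31 (adjusted p = 0.575) to -0.32 ± 0.27 (adjusted p = 0.428).

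Cxcl12, the stromal ligand of Cxcr4, was at 127.8 and 130.7 FPKM in control tumours, at 119.9, 12.9 and 217.0 in the ΔNp63-labelled and at 168.3, 167.0 and 166.1 in the ΔNp73-labelled tumours. The ΔNp73-labelled libraries lay within a narrow band above both controls, and replicate 2 was 9.27 times below the next lowest library. The log2FC was -0.86 ± 1.0 and 0.37 ± 1.0 (limma adjusted p = 0.764 and 0.851) and, without replicate 2, 0.32 ± 0.25 and 0.37 ± 0.22 (adjusted p = 0.381 and 0.24). Its other entries followed the same order at lower levels, with group means of 16.2, 14.9 and 20.3 FPKM for the next most abundant.

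The thymic epithelial markers, all 10 in the table, summed to 423.6 and 449.0 FPKM in the controls, to 437.5, 65.6 and 587.4 in ΔNp63-labelled replicates 1, 2 and 3 and to 443.4 to 646.4 in the ΔNp73-labelled group. None was at 0. In replicate 2, where Ccl25 and Cxcl12 were lowest, the thymic epithelial protease Prss16 was at 1.54 FPKM against 113.9 to 233.0 elsewhere. Fibroblast markers, 11 of 11 in the table and none at 0, summed to 93.2 and 97.4 FPKM in the controls, 121.9 to 231.7 in the ΔNp63-labelled and 265.9 to 358.1 in the ΔNp73-labelled tumours. The part of either cell type in the ligand values was not tested. In bulk tissue fewer cells of a type and less RNA per cell cannot be told apart.

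The ligands of Ccr7, which gather naive T cells and mature thymocytes, were high in ΔNp63-labelled replicates 1 and 3. Ccl21a was at 95.1 and 134.7 FPKM in control tumours, at 701.3, 44.8 and 468.3 in the ΔNp63-labelled and at 335.0, 228.8 and 268.7 in the ΔNp73-labelled tumours. ΔNp63-labelled replicates 1 and 3 were thus above every ΔNp73-labelled library and replicate 2 below every other library. The near-identical Ccl21c followed, at 18.8 and 17.3 FPKM, at 82.3, 10.9 and 125.0, and at 46.8, 29 and 39.6. Mouse Ccl21 and Ccl19 have near-identical gene copies between which reads can be split, so their separate levels are uncertain.

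Ccl19 itself was at 16.1 and 15 FPKM in control tumours, at 34.3, 16.7 and 35.9 and at 31, 23.1 and 22.4, and was above both controls in all 6 deletion libraries. Without replicate 2 the 3 Ccr7 ligands were called higher in both groups by limma, beside 11.7% and 16.8% of all genes. Their median log2FC was then 2.33 in the ΔNp63-labelled and 1.03 in the ΔNp73-labelled group. All 3 were then lower in the ΔNp73-labelled than in the ΔNp63-labelled libraries, without overlap, but none passed: Ccl21c had the smallest adjusted p of any member in that comparison (log2FC -1.40 ± 0.24, limma adjusted p = 0.087).

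Cxcl13, which draws B cells into follicles through Cxcr5, was at 3.6 and 5.31 FPKM in control tumours, at 79.7, 7.57 and 105.0 in the ΔNp63-labelled and at 82.3, 39.3 and 26 in the ΔNp73-labelled tumours. No deletion library overlapped the controls. Its log2FC was 2.96 ± 1.04 (limma adjusted p = 0.314) and 3.06 ± 1.04 (adjusted p = 0.168), or 4.10 ± 0.48 (adjusted p = 0.00246) and 3.06 ± 0.43 (adjusted p = 0.00314) without replicate 2. B cell markers, all 8 in the table and none at 0, summed to 36.1 and 38.4 FPKM in the controls, 5.75 to 70.5 in the ΔNp63-labelled and 42.8 to 46.2 in the ΔNp73-labelled tumours. Their sum was above both controls in 5 of the 6 deletion libraries and lowest in replicate 2. Of the 8 genes, 1 (7 without replicate 2) had a log2FC above 0 in the ΔNp63-labelled and 5 in the ΔNp73-labelled group. The medians were -0.33 (0.25 without replicate 2) and 0.08. None was called with all libraries. Without replicate 2 none was called higher, beside 11.7% and 16.8% of all genes. In the ΔNp73-labelled group 1 was then called lower, beside 16.1%. The part of these markers in the Cxcl13 values was not tested. Xcl1, a lymphocyte ligand for the dendritic cell receptor Xcr1, was at 6.99 and 8.4 FPKM in control tumours, at 29.1, 5.62 and 20.9 and at 20.5, 18.2 and 19.4. Only replicate 2 of the 6 deletion libraries lay below the controls for Xcl1.

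The ligands of Ccr4 departed from each other. Ccl17, a dendritic cell chemokine, was at 5.72 and 6.47 FPKM in control tumours, at 9.84, 6.1 and 3.91 in the ΔNp63-labelled and at 1.16, 2.49 and 1.18 in the ΔNp73-labelled tumours. Its ΔNp73-labelled libraries lay below all 5 others, where 35.7% of all genes lay below the controls and 8.58% below the ΔNp63-labelled libraries. Its log2FC was 0.03 ± 0.35 in the ΔNp63-labelled group (limma adjusted p = 0.982) and -1.48 ± 0.35 in the ΔNp73-labelled group (adjusted p = 0.101, or 0.0193 without replicate 2). Between the deletion groups it was -1.51 ± 0.32 (adjusted p = 0.345), or -1.52 ± 0.35 (adjusted p = 0.142) without replicate 2, so the difference did not pass there.

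Ccl22, the other Ccr4 ligand and a chromosome 8 neighbour of Ccl17, was at 52 and 40.6 FPKM in control tumours, at 61.8, 8.28 and 60.2 and at 37.2, 44.3 and 46.9, and overlapped in all 3 comparisons with all libraries. Dendritic cell markers, of which 8 of 9 had an entry and none was at 0, summed to 31.2 and 31.7 FPKM in the controls, 18.5 to 52.4 in the ΔNp63-labelled and 56.3 to 59 in the ΔNp73-labelled tumours. That list includes the member Xcr1, and its most abundant gene, Irf8, made 17.1 and 16.9 FPKM of the control sums. Cd209a, a lectin on the same list, was at 2.25 and 3.01 FPKM in control tumours and at 0.316 to 1.36 in the deletion libraries. It was called lower in both groups without replicate 2 (log2FC -1.46 ± 0.26 and -0.94 ± 0.23, limma adjusted p = 0.00976 and 0.0225). Of the 7 list genes tested, Cd209a was the only 1 called lower in that model. In the same model 2 were called higher in the ΔNp63-labelled and 5 in the ΔNp73-labelled group. Of all genes, 11.7% were called higher and 10.8% lower in the former group, and 16.8% and 16.1% in the latter. The list's part in the Ccl17 values was not tested.

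Cx3cl1, the membrane-bound ligand that lies between Ccl22 and Ccl17, was at 4.02 and 3.94 FPKM in control tumours, at 6.61, 2.16 and 6.98 and at 11.1, 8.92 and 7.43. It was highest in the ΔNp73-labelled libraries, which overlapped neither other group. Cxcl16, a scavenger-type ligand of Cxcr6, was at 10.9 and 10.2 FPKM, at 19.4, 9.9 and 18.2 and at 23, 24.9 and 17.3. Both were called higher in both groups without replicate 2, as 11.7% and 16.8% of all genes were, and in neither with it, by limma.

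Ccl27a, a skin-type ligand of Ccr10, was the single member on opposite sides of the controls in the deletion groups. It was at 6.01 and 6.66 FPKM in control tumours, at 25.6, 7.64 and 8.33 in the ΔNp63-labelled and at 2.97, 5.38 and 2.9 in the ΔNp73-labelled tumours. The difference between the deletion groups was -1.48 ± 0.44 on the log2 scale (limma adjusted p = 0.432), and -1.77 ± 0.43 (adjusted p = 0.152) without replicate 2. The other 3 entries of the gene had ΔNp63-labelled means of 1.74, 0.821 and 1.47 FPKM, below their control means of 2.6, 2.05 and 1.8, so the entries did not move together. Mouse Ccl27 has near-identical copies, and its level is uncertain for the same reason as that of Ccl21. The remaining ligands tested, Ccl20, Ccl24, Cxcl14 and Cxcl17, stayed at or below 4.86 FPKM in every library and none was called with or without replicate 2.

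**Figure D3:**
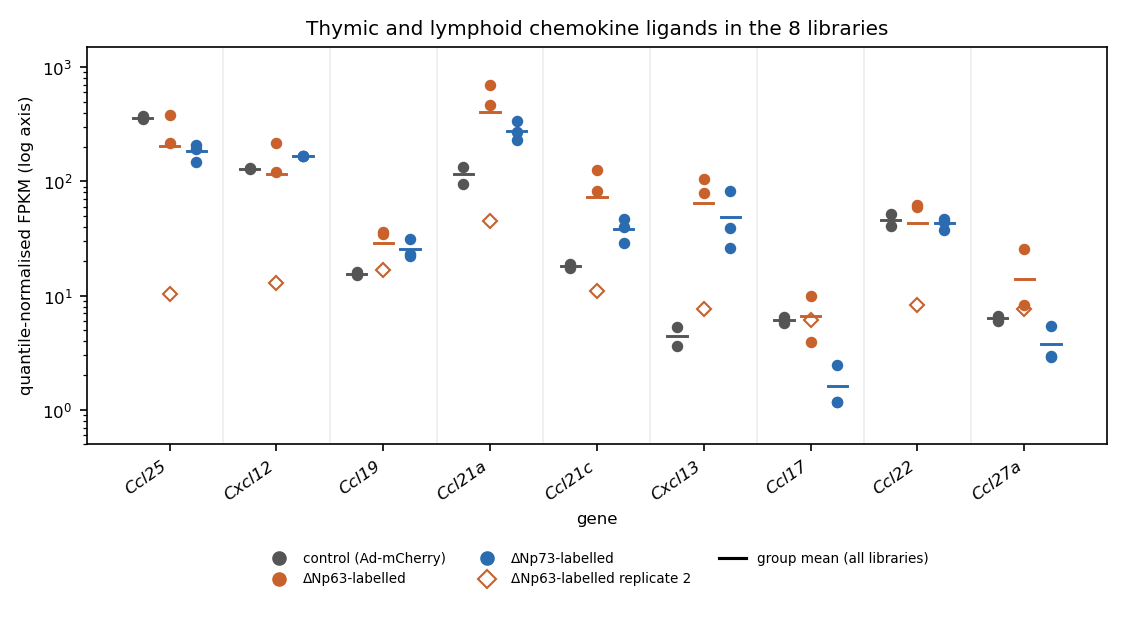
Quantile-normalised FPKM (log axis) of 9 thymic and lymphoid ligands in each of the 8 libraries, marked as controls (grey), ΔNp63-labelled (orange, with replicate 2 as an open diamond) and ΔNp73-labelled (blue); bars are group means over all libraries. The diamond lies far below the other points for Ccl25 (10.3), Cxcl12 (12.9) and Ccl22 (8.28), and the ΔNp73-labelled points for Ccl17 lie between 1.16 and 2.49, below all others.

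Among the receptors, those of myeloid cells stood out. Ccr2, the monocyte receptor for Ccl2, was at 4.01 and 3.81 FPKM in control tumours, at 27.6, 3.63 and 23.3 in the ΔNp63-labelled and at 44.5, 36.4 and 38.2 in the ΔNp73-labelled tumours. Replicate 2 was at the control level, and the ΔNp73-labelled libraries lay above all ΔNp63-labelled ones. The log2FC was 1.59 ± 0.70 (limma adjusted p = 0.4) and 3.05 ± 0.70 (adjusted p = 0.097), or 2.43 ± 0.13 (adjusted p = 0.000491) and 3.05 ± 0.12 (adjusted p = 0.000255) without replicate 2. These were the smallest adjusted p-values of any member in that model. Between the deletion groups the log2FC of Ccr2 was 1.46 ± 0.63 (adjusted p = 0.473), or 0.62 ± 0.12 (adjusted p = 0.117) without replicate 2.

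Ccr1, shared by Ccl3, Ccl5, Ccl6 and Ccl9, was at 1.05 and 1.11 FPKM in control tumours, at 12.4, 1.91 and 10.5 and at 20.9, 18.4 and 10.6. Every deletion library was above both controls. Cxcr2, the neutrophil receptor for the chromosome 5 block, was at 1.08 and 1.79 FPKM in control tumours, at 4.82, 2.24 and 2.84 and at 6.67, 7.61 and 6.36, with 3 ranges that did not overlap. Cx3cr1, the receptor for Cx3cl1 on monocytes and macrophages, was at 3.51 and 3.57 FPKM, at 10.5, 1.74 and 11.5 and at 10.3, 9.61 and 6.74, and only replicate 2 was below the controls. Ccr1, Ccr2, Cxcr2 and Cx3cr1 were each called higher by limma in both groups without replicate 2, and none of them with it. Of all genes, 11.7% and 16.8% were called higher without it.

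The macrophage and monocyte markers were higher in the same libraries. Of 18 listed symbols 16 had an entry, none was at 0, and their sums were 418.9 and 478.5 FPKM in the controls, 471.1 to 1238.2 in the ΔNp63-labelled and 1128.3 to 1494.2 in the ΔNp73-labelled tumours. All 16 had a log2FC above 0 in both groups, with medians of 1.06 (1.49 without replicate 2) and 1.65. No marker was called with all libraries, and 15 and 16 were called higher by limma without replicate 2, beside 11.7% and 16.8% of all genes. Fcgr1, a high-affinity antibody receptor of macrophages, had the largest log2FC of the 16 in both groups, 2.82 and 3.64, and is not typical of the list. It was at 1.25 and 1.22 FPKM in control tumours and at 4.18 to 35.6 in the deletion libraries. Replicate 2 had the lowest sum of the deletion libraries, 471.1 FPKM, within the range of the controls. In that library 10 of the 16 markers were above both controls, while the most abundant, Lyz2, was at 151.1 FPKM against 168.9 and 199.2. The part of these cells in the values of the receptors and ligands was not tested.

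Receptors of thymocytes and T cells had a median log2FC of -0.01 (0.07 without replicate 2) in the ΔNp63-labelled and -0.08 in the ΔNp73-labelled group. Ccr9, the thymocyte receptor for Ccl25, was at 115.2 and 100.6 FPKM in control tumours, at 88, 41.8 and 85 in the ΔNp63-labelled and at 48.8, 66.6 and 70.2 in the ΔNp73-labelled tumours. By the entry used, it was below both controls in all 6 deletion libraries. The log2FC was -0.66 ± 0.34 (limma adjusted p = 0.455) and -0.81 ± 0.34 (adjusted p = 0.227), or -0.31 ± 0.18 (adjusted p = 0.253) and -0.81 ± 0.17 (adjusted p = 0.0117) without replicate 2. A second Ccr9 entry was at 87.7 and 86.5 FPKM in control tumours, at 67.2, 50 and 86.8 and at 66.4, 57.5 and 64.9, so that it overlapped the controls through ΔNp63-labelled replicate 3. Thus both the ligand Ccl25 and its receptor were called lower in the ΔNp73-labelled group without ΔNp63-labelled replicate 2, as 16.1% of all genes were.

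Cxcr4, the receptor for Cxcl12 and the most abundant of the family, was at 182.1 and 207.8 FPKM in control tumours, at 149.1, 157.1 and 214.0 and at 111.1, 125.4 and 151.1. The ΔNp73-labelled libraries were below both controls and overlapped the ΔNp63-labelled ones. Its log2FC was -0.18 ± 0.21 (limma adjusted p = 0.764) and -0.60 ± 0.21 (adjusted p = 0.181), and the latter stayed just short of the threshold without replicate 2 (adjusted p = 0.0506). Ccr7, the receptor for Ccl19 and Ccl21, was at 22.3 and 19.1 FPKM, at 34.2, 8.14 and 37 and at 26.4, 33.8 and 30.5. It was called higher in both groups without replicate 2 (log2FC 0.76 ± 0.14 and 0.52 ± 0.13, limma adjusted p = 0.0121 and 0.0224).

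Ccr4, carried by helper T cells, was at 18.7 and 17.3 FPKM in control tumours, at 18.9, 18.5 and 17.5 in the ΔNp63-labelled and at 10.6, 12.6 and 16.9 in the ΔNp73-labelled tumours. It was lower in each ΔNp73-labelled library than in each of the 5 others, as was its ligand Ccl17. Without overlap, 3 of 49 members were below the ΔNp63-labelled libraries, beside 8.58% of all genes, and 7 below the controls, beside 35.7%. Such separation is therefore not particular to this pair. The log2FC of Ccr4 in the ΔNp73-labelled group was -0.43 ± 0.19 (limma adjusted p = 0.254, or 0.103 without replicate 2). Ccr8, another T cell receptor of chemokines, was at 6.66 and 6.48 FPKM, at 5.95, 3.7 and 8.09 and at 2.66, 4.99 and 4.97. Cxcr3, chosen after its values were seen since it lay under the naming minimum, was at 1.78 and 2.17 FPKM in control tumours and at 3.7 to 4.55 in all 6 deletion libraries, replicate 2 included. Its log2FC was 0.77 ± 0.15 and 0.75 ± 0.15 (limma adjusted p = 0.164 and 0.0811), and 0.80 ± 0.13 and 0.75 ± 0.12 without replicate 2 (adjusted p = 0.00787 and 0.00493).

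The T cell and thymocyte markers, summed above, had median log2FC of -0.75 (-0.46 without replicate 2) and -0.91. Of the 18, 0 were called with all libraries. Without replicate 2, where limma called 10.8% and 16.1% of all genes lower, it called 3 and 11 of the 18 lower. Their part in the receptor values was not tested. Xcr1, the receptor for Xcl1 on cross-presenting dendritic cells, was at 4.08 and 3.24 FPKM, at 4.37, 1.88 and 5.5 and at 5.1, 6 and 7.17. Only its ΔNp73-labelled libraries were all above the controls, and it was called higher there without replicate 2 (log2FC 0.60 ± 0.16, limma adjusted p = 0.0298). The other receptors tested, Ccr6, Ccr10, Cxcr5, Cxcr6 and Cxcr7, lay between 0.0212 and 7.59 FPKM. Of these 5, Cxcr5 was called higher in the ΔNp63-labelled group without replicate 2, as 11.7% of all genes were, and no other call was made.

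**Figure D4:**
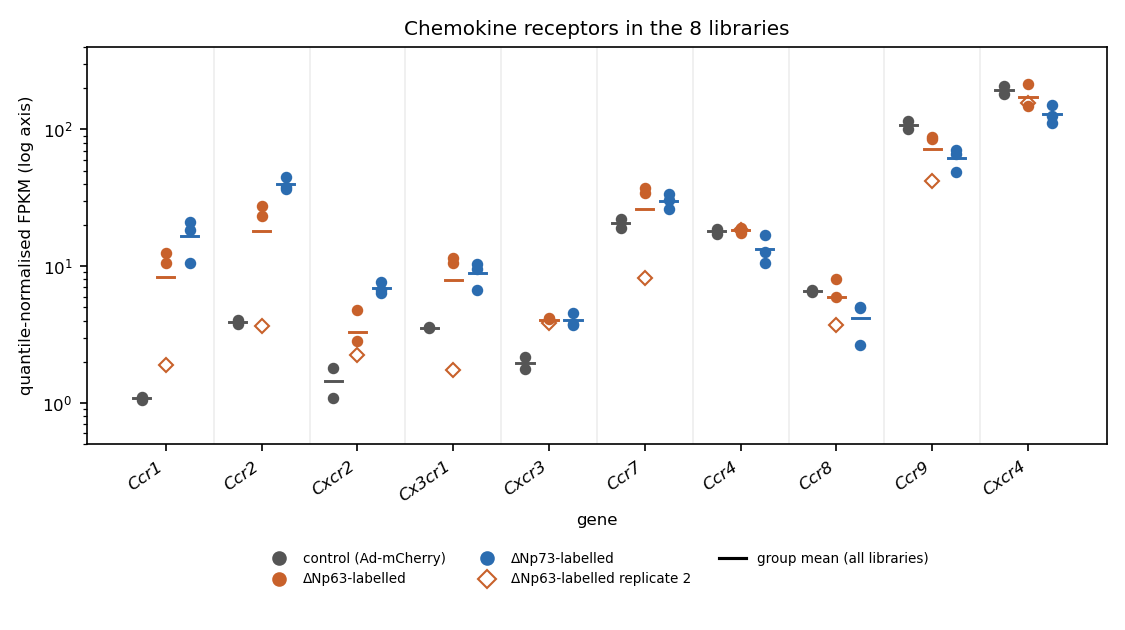
Quantile-normalised FPKM (log axis) of 10 receptors in each of the 8 libraries, marked as controls (grey), ΔNp63-labelled (orange, with replicate 2 as an open diamond) and ΔNp73-labelled (blue); bars are group means over all libraries. For Ccr2 the controls lie at 4.01 and 3.81 with the diamond at 3.63 and the other 5 deletion points between 23.3 and 44.5, whereas for Ccr9 all deletion points lie below 100.6.

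By place in the genome, 31 of the 51 members lie in 8 clusters with at most 5 protein-coding genes between neighbours. The members of a cluster did not all behave alike. On chromosome 9, Ccr9, Cxcr6, Xcr1, Ccr1, Ccr3 and Ccr2 follow each other. In the ΔNp73-labelled group Ccr9 had a log2FC of -0.81, Cxcr6 0.10 and Xcr1 0.60, while Ccr1 and Ccr2 had 3.03 and 3.05. In the first cluster of chromosome 11 Ccl2 and Ccl7 had 5.29 and 5.15 and their neighbour Ccl11 1.13. On chromosome 8, Cx3cl1 with 1.01 lies between Ccl22 with -0.11 and Ccl17 with -1.48.

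**Figure D5:**
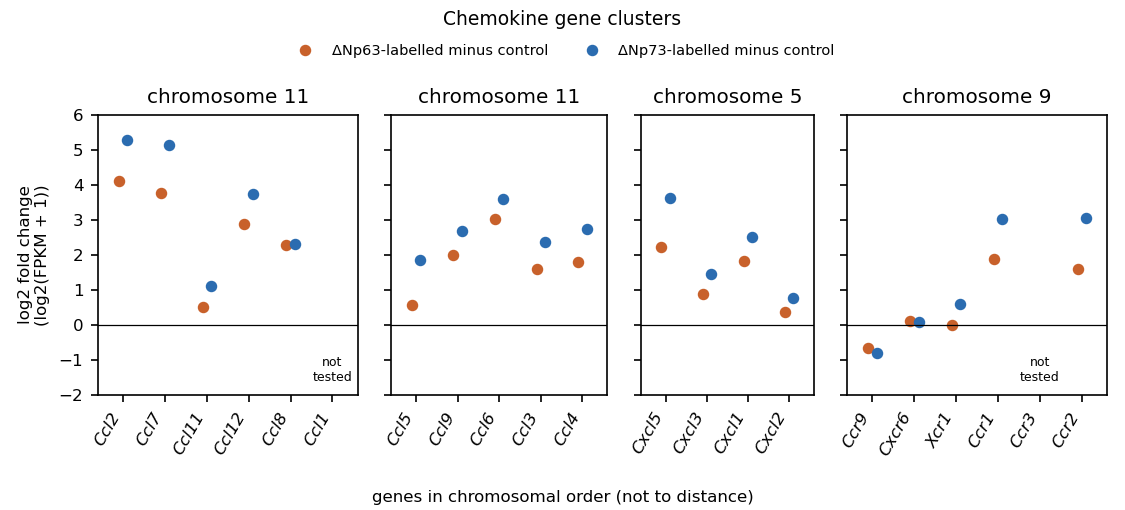
Log2 fold change against control (y axis, difference of mean log2(FPKM + 1), all libraries) of members of 4 chemokine gene clusters, set in chromosomal order without regard to distance, for the ΔNp63-labelled (orange) and ΔNp73-labelled (blue) groups; Ccl1 and Ccr3 were not tested. On chromosome 9 the values step from -0.81 for Ccr9 to 3.03 for Ccr1 in the ΔNp73-labelled group, and on chromosome 11 Ccl11 lies at 1.13 between Ccl7 at 5.15 and Ccl12 at 3.74.

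Between the deletion groups, which both received Cre, the ligands had a median log2FC (ΔNp73-labelled minus ΔNp63-labelled) of 0.57 and the receptors 0.24, against -0.02 over all genes. Without replicate 2 the medians were 0.05 and -0.23, so that this library decides them. Of 49 members 2 were higher and 3 lower at an unadjusted p under 0.05 by limma, and 6.11% and 4.4% of all genes were. All ΔNp73-labelled libraries were above all ΔNp63-labelled ones for Ccr2, Cx3cl1, Cxcl5 and Cxcr2 (against 10.3% of all genes) and below them for Ccl17, Ccl27a and Ccr4 (against 8.58%). Without replicate 2 they were above for 4 members and below for 17, against 16% and 15.2% of all genes. Without replicate 2 the unadjusted count became 4 higher and 14 lower, beside 8.16% and 7.43% of all genes, and still 0 passed the adjusted threshold, which 0.0626% and 0.0861% of all genes did. The 14 lower members include the 3 Ccr7 ligands, Ccl22, Ccl25, Cxcl13, Ccr9 and Cxcr4.

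Chemokine ligands and receptors whose names fall outside the pattern were read as a separate list, of which 7 of 12 symbols had an entry. Pf4, the platelet factor, was at 3.86 and 5.29 FPKM in control tumours, at 93.4, 8.32 and 14.2 and at 69.5, 36.1 and 30.4. Without replicate 2, Pf4 and the chemerin receptor Cmklr1 were called higher in both groups, as was the scavenging receptor Darc in the ΔNp73-labelled group, and 0 of 7 with it. Of all genes, 11.7% and 16.8% were called higher in the 2 groups without it. Of 26 genes that signal below chemokine receptors, tested out of 27 listed, 0 were called with all libraries. Without replicate 2, 5 were called higher and 0 lower in the ΔNp63-labelled group (Gng2, Arrb2, Rgs1, Rgs2 and Rgs18), and 6 higher and 1 lower in the ΔNp73-labelled group. The shares of all genes called higher and lower were 11.7% and 10.8% in the former, and 16.8% and 16.1% in the latter. The median log2FC of the 26 genes was then 0.02 in both groups.

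The 5 named genes, a G protein subunit, an arrestin and 3 inhibitors of G protein signalling, were among the 6 higher in the ΔNp73-labelled group. Arrb1 was the sixth, and Rhoh, a GTPase of T cells, was the lower one. Gnai2, the inhibitory G protein that most chemokine receptors use, was at 125.9 and 117.9 FPKM in control tumours, at 121.1, 75.1 and 131.7 and at 110.7, 142.2 and 127.8, and overlapped in all comparisons. Markers of cytotoxic lymphocytes, cells that can make Ccl5 and Xcl1, had 10 of 12 entries and sums of 70.7 and 87.7 FPKM in the controls, 143.1 to 1002.6 and 91.7 to 173.3. Endothelial markers, 10 of 10, summed to 29.7 and 37.5 FPKM, 39.5 to 52 and 46.8 to 84.3. None of either list was at 0, and their part in the values was not tested.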

How the data were processed

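RNA from 8 mouse thymic lymphomas was sequenced. The authors deposited 1 table of quantile-normalised FPKM per RefSeq transcript (16589 entries, 13681 symbols, 2113 with more than 1 entry). TopHat2 2.0, Cufflinks 2.0 and the build mm9 are named, per the submitters' processing notes, without their roles. After quantile normalisation all libraries share 1 distribution, and a change in total RNA is invisible. The table holds no counts, so the depth is unknown and no counting interval is given. Symbols turned into dates (35) were restored by RefSeq identifier.

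The entry with the highest mean was kept per symbol. Genes that reached 1 FPKM in 2 or more libraries were tested two-sided on log2(FPKM + 1), a pseudocount of 1, with limma 3.58.1 in R 4.3.3 (moderated by empirical Bayes with a trend on intensity). The 8 libraries formed 1 model, which leaves 5 residual degrees of freedom. P-values were adjusted by the Benjamini-Hochberg method over every gene tested, and the threshold was 0.05. The fit was tested on simulated data. Tables were summarised with pandas 2.3.3 in Python 3.11.15. A promoter match is counted once per gene.

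Members named with values have a group mean of at least 5 FPKM or are among the 3 largest rises or falls of a comparison (38 of 51, of which 1 is counted in the totals but not reported here). The members, gene lists and role groups were chosen with earlier results of these data known. The labels give no batch, pair or replicate number. Alternatives were other pseudocounts, filters on low values, summed entries, separate models per comparison, array weights, no intensity trend and leaving out each library. Gene order and promoters came from RefSeq (GRCm38.p6), and no coordinate of that build was set beside mm9.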

Additional observations from a re-analysis of the deposited data

Results flagged for a closer look

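Ccl27a was the member whose 2 deletion groups lay on opposite sides of the controls. All 3 ΔNp63-labelled libraries (25.6, 7.64 and 8.33 FPKM) were above both controls (6.01 and 6.66 FPKM), and all 3 ΔNp73-labelled libraries (2.97, 5.38 and 2.9 FPKM) were below them. The log2FC between the deletion groups was -1.48 (limma adjusted p = 0.432), so the difference did not pass the test. The gene has 4 entries with near-identical copies in the mouse genome, and its other 3 entries lay at or below 3.38 FPKM in every library.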

How the results depend on the processing

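No paired analysis was possible because the labels carry no replicate numbers. The number of members called depended on ΔNp63-labelled replicate 2 and on its weight. Against control, limma's array weights gave 31 calls in the ΔNp63-labelled and 36 in the ΔNp73-labelled group, and 1 between the deletion groups. For the ΔNp73-labelled group a pseudocount of 0.1 gave 1 call and a model of the 2 groups alone 34. Leaving out each library in turn gave 0 to 28 calls in the ΔNp63-labelled and 0 to 32 in the ΔNp73-labelled group, and 0 to 0 between the deletion groups. The highest of these counts came without ΔNp63-labelled replicate 2. Without ΔNp63-labelled replicate 1 the ΔNp73-labelled group had 1 call. All these counts pool higher and lower calls. Without ΔNp63-labelled replicate 2, 11.7% of all genes were called higher and 10.8% lower in the ΔNp63-labelled group. In the ΔNp73-labelled group the shares were then 16.8% and 16.1%, and 15.9% and 14.9% in the model of the 2 groups alone. For array weights and the remaining settings no share of all genes is given, so those counts say nothing particular about the members.

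The median log2FC of the ligands ran, leaving out each library, from 0.45 to 1.50 (ΔNp63-labelled), 1.10 to 1.43 (ΔNp73-labelled) and 0.05 to 0.95 (between the deletion groups). That of the receptors ran from -0.00 to 0.65, 0.22 to 0.52 and -0.23 to 0.48. With genes of at least 5 FPKM the ligand median of the ΔNp73-labelled group was 1.51. Between the deletion groups the ligand median was 0.04 with array weights, and the receptor median 0.46 with a pseudocount of 0.1, 0.43 with genes of at least 5 FPKM and -0.22 with array weights. The cause was not tested beyond the settings named.

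Of the values of single named members 12 changed sign with array weights and none under the other settings that keep all libraries. Between the deletion groups these were Ccl21a (-1.24), Ccl22 (-0.42), Ccl25 (-0.30), Ccl6 (-0.15), Ccl8 (-0.35), Ccl9 (-0.11), Ccr7 (-0.07), Cx3cr1 (-0.16), Cxcl13 (-1.03) and Xcl1 (-0.42), and against control in the ΔNp63-labelled group Ccl22 (0.35) and Cxcl12 (0.10). Leaving out single libraries changed a sign in 30 of 912 values. In the ΔNp63-labelled group against control the ranges were -0.26 to 0.31 for Ccl17, -0.98 to 0.40 for Ccl22, -0.04 to 0.07 for Ccr4, -0.27 to 0.76 for Ccr7, -0.40 to 0.07 for Ccr8, -0.02 to 0.65 for Cx3cl1 and -1.67 to 0.32 for Cxcl12. In the ΔNp73-labelled group Ccl22 ran from -0.28 to 0.07. Between the deletion groups the ranges were -0.02 to 1.35 for Ccl12, -0.46 to 0.07 for Ccl19, -1.06 to 0.91 for Ccl21a, -1.40 to 0.30 for Ccl21c, -0.51 to 0.87 for Ccl22, -0.67 to 1.87 for Ccl25, -0.50 to 0.29 for Ccl8, -0.23 to 0.79 for Ccr7, -0.49 to 0.03 for Ccr9, -0.30 to 0.80 for Cx3cr1, -1.04 to 0.77 for Cxcl13, -0.04 to 0.99 for Cxcl9 and -0.33 to 0.76 for Xcl1. No member value changed sign with any library left out for the ligands of Ccr2 against control.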
